A study of Arabidopsis thaliana with 6 samples.

Results

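The 41 loci described here encode the histones of Arabidopsis thaliana, the proteins around which nuclear DNA is wound. They were chosen by locus identifier from a list of H1, H2A, H2B, H3 and H4 genes. The choice used no measured value, but the list was made with earlier results of these data known. The deposited read counts cover 32140 loci. Each locus is represented by its most-read isoform. The list holds 25 replication-type genes (5 H3.1, 8 H4, 4 H2A and 8 H2B loci), 13 variant genes (3 H3.3, 3 H2A.Z, 3 H2A.W and 2 H2A.X loci, the centromeric CENH3 and the pollen-type H3 gene HTR10) and 3 linker H1 genes.

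The libraries were made from hand-dissected material whose RNA was linearly amplified before sequencing on the SOLiD platform. The kyp group is 2 libraries, numbers 11 and 12, of embryos with 2 to 4 cells whose mother was Landsberg erecta (Ler) carrying kyp-2, a mutant allele of KRYPTONITE, which encodes a histone H3 methyltransferase of silent chromatin, and whose father was Columbia (Col-0). There is 1 library, number 4, of wild-type globular embryos from the Ler by Col-0 cross. There is 1 library, number 2, of wild-type Ler seed coat, a maternal tissue that encloses the embryo, dissected from seeds with embryos of 2 to 4 cells. The WT group is 2 libraries, numbers 7 and 11, of embryos with 2 to 4 cells from the wild-type Ler by Col-0 cross. All embryo libraries include part of the suspensor, the stalk that anchors the embryo. For kyp library 11 a genotype field reads wild type beside the kyp-2 entry, and the sample titles describe the kyp and WT embryos by the same cross. The sample names within those titles do separate the groups, with KypCol or kypCol for kyp and LerCol for WT. The grouping here follows those names. The seed coat is pure Ler and the embryos carry a Col-0 genome as well, so tissue and strain cannot be told apart. Nothing in the labels ties the 2 libraries of a group to different plants, so p-values reflect only the spread between these libraries, which may be technical.

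In chromatin, DNA wraps around an octamer of the core histones H2A, H2B, H3 and H4, and linker histone H1 binds between these particles. Replication-type histones are made mainly during S phase, when the cell copies its DNA and needs histones for the new strands, and H3.1 is laid down with replication. Variants are made outside S phase as well: H3.3 replaces H3.1 in transcribed genes, H2A.Z sits at gene starts and in genes under regulation, H2A.W marks heterochromatin in plants, H2A.X takes part in the response to DNA breaks, and CENH3 marks centromeres. In plants, histone mRNAs carry poly(A) tails.

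The H3.1 and H3.3 genes show how alike these loci are, and why most reads can still be told apart. The 5 H3.1 loci encode 1 protein and the 3 H3.3 loci encode another, which differ at 4 codons, numbers 32, 42, 88 and 91 counted from the start codon. Coding identity was 80.3 to 89.5% between H3.1 loci, 78.6 to 88.8% between H3.3 loci and 74.0 to 80.3% between an H3.1 and an H3.3 locus. Coding bases 82 to 141, which hold the first 2 of these codons, are given 5′ to 3′ from the RefSeq TAIR10.1 genome. Capitals mark bases that differ from HTR1, and the 3 H3.3 loci carry 12 to 14 of them. HTR3 and HTR9 differ from each other only near the end of this stretch. They share 10 windows of 50 bases, in which reads cannot be told apart.

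HTR1 (AT5G65360), H3.1, locus chr5:26119859-26120581, minus strand: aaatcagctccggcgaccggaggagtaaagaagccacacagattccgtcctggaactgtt

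HTR2 (AT1G09200), H3.1, locus chr1:2971571-2972334, minus strand: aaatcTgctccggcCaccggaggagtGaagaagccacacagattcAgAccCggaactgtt

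HTR3 (AT3G27360), H3.1, locus chr3:10129105-10129937, minus strand: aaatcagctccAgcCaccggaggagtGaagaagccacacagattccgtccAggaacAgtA

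HTR13 (AT5G10390), H3.1, locus chr5:3268847-3269594, minus strand: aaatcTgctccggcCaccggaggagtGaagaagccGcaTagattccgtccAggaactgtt

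HTR9 (AT5G10400), H3.1, locus chr5:3270172-3270957, minus strand: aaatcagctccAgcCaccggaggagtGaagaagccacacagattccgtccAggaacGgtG

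HTR4 (AT4G40030), H3.3, locus chr4:18555532-18557106, minus strand: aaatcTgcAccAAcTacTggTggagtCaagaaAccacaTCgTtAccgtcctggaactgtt

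HTR5 (AT4G40040), H3.3, locus chr4:18557149-18558945, minus strand: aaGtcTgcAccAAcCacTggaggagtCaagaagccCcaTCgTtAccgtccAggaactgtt

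HTR8 (AT5G10980), H3.3, locus chr5:3472405-3473570, minus strand: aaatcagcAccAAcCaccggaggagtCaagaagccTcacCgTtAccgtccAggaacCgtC

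The 8 H4 loci encode 1 protein from coding sequences with 78.8 to 98.1% identity. The first 60 coding bases of 5 of them are shown because 2 pairs among them are so alike that short reads can be ambiguous. Capitals mark bases that differ from AT3G45930. AT3G46320 has none in this stretch, and its longest run of coding bases shared with AT3G45930 is 147 bases. AT1G07660 and AT1G07820 share a run of 95 bases.

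H4 AT3G45930, H4, locus chr3:16883316-16884009, plus strand: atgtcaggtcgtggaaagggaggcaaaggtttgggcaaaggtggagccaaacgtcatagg

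H4 AT3G46320, H4, locus chr3:17019785-17020428, minus strand: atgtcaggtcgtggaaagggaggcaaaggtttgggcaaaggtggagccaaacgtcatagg

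H4 AT1G07660, H4, locus chr1:2368833-2369735, plus strand: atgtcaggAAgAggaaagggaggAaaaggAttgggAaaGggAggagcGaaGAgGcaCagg

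H4 AT1G07820, H4, locus chr1:2421089-2422066, minus strand: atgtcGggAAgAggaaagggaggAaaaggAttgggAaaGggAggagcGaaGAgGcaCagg

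H4 AT2G28740, H4, locus chr2:12329345-12330059, minus strand: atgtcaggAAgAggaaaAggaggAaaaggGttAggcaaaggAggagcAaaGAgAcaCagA

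Reads of about 50 bases could be placed uniquely over all 50-base windows of 26 of the 41 reference transcripts, on either strand. In 10 members under 90% of the windows were unique, and their values are uncertain. AT3G45930 and AT3G46320 were unique over 74.3 and 72.1% of their windows, and AT1G07660 and AT1G07820 over 71.5 and 77.8%. HTA13 (88.9%) shares windows with HTA10 and also overlaps a gene on the opposite strand. HTA3 (46.7%), H1.1 (60.8%), HTA12 (65.9%) and HTB9 (68.6%) overlap genes on the opposite strand, and HTR3 (64.4%) overlaps a neighbour on its own strand. HTR9 (98.6%) shares 10 windows with HTR3. H1.2 and HTA9 also have a neighbour on the opposite strand. Whether reads were counted by strand is not stated in the labels. The deposited tables are labelled as counts of unique reads, so closely matched loci would lose reads under any scaling.

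The libraries held 1448502 and 4107227 gene reads (kyp 11 and 12), 1773582 (globular), 1935906 (seed coat), and 2497235 and 3906313 (WT 7 and 11). Ribosomal RNA took 0.804 to 1.80% of the gene reads in 5 libraries and 9.0% in WT 11. KYP itself had 67 and 167 reads in kyp 11 and 12, against 134 and 224 in WT 7 and 11, a log2 fold change of -0.50 with an edgeR adjusted p of 1.00, so the counts neither show nor exclude loss of KYP transcript. The embryo markers WOX2, WOX8, WOX9 and LEC1 summed to 4.03 CPM in the seed coat library and 50.8 to 110 CPM in the 5 embryo libraries. The 7 seed coat markers summed to 892 CPM in the seed coat library and 837 to 2543 CPM in the embryo libraries. KLU, 1 of the 7, went against that label: it had 1509 and 1088 CPM in kyp 11 and 12, 284 in the globular library, 58.7 in the seed coat library, and 1187 and 2031 in WT 7 and 11. It was called lower in seed coat than in WT embryos (log2 fold change -4.78, edgeR adjusted p = 0.000518). BAN and TT12, genes of seed coat pigment, had log2 fold changes of only 0.81 and 0.13 in seed coat over WT embryos (edgeR adjusted p = 0.691 and 0.997), so the embryo libraries also held RNA of seed coat markers. Endosperm markers summed to 93.7 CPM in the seed coat library and 36.8 to 113 CPM in the embryo libraries. The part of these marker levels in the comparisons with seed coat was not tested.

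Histone reads made up 0.932 and 0.834% of gene reads in kyp 11 and 12, 1.34% in the globular library, 0.693% in the seed coat library, and 0.696 and 0.916% in WT 7 and 11. The 95% Clopper-Pearson interval was 1.32 to 1.35% in the globular library, 0.682 to 0.705% in the seed coat library and 0.686 to 0.707% in WT 7, and covers counting error only. The globular share was the highest of the 6. The seed coat share lay within the interval of WT 7, and the 2 WT libraries differed from each other more than the seed coat differed from WT 7. In bulk samples like these, fewer cells of a type and less RNA per cell cannot be told apart.

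The balance between replication-type and variant histones was where the seed coat stood apart. Levels are reads per 1000000 gene reads after TMM scaling (CPM), and levels compared between genes are divided by the transcript length (CPM per kb). The summed CPM per kb of the 25 replication-type loci was 2.69 and 2.59 times that of the 13 variant loci in kyp 11 and 12. It was 2.75 times in the globular library, 1.67 times in the seed coat library, and 2.76 and 2.63 times in WT 7 and 11. The 5 embryo libraries thus spanned 2.59 to 2.76, and the seed coat lay below all of them, with no replicate of its own. The ratio of H3.1 to H3.3, the pair of H3 types exchanged during and outside replication, was 1.2 and 1.01 in kyp 11 and 12, 1.15 in the globular library, 0.458 in the seed coat library, and 1.04 and 1.02 in WT 7 and 11.

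**Figure D1:**
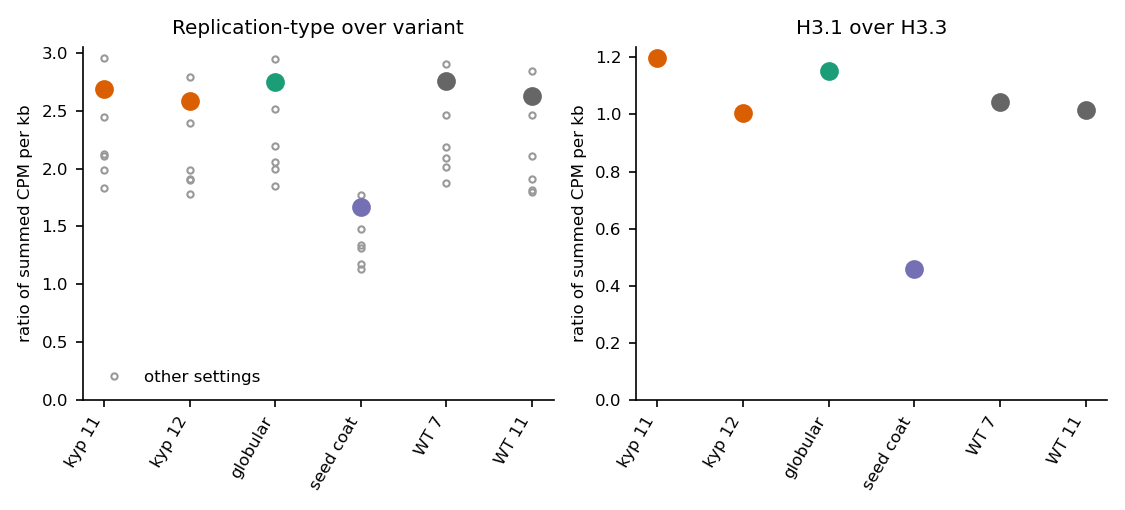
Ratios of summed CPM per kb in each library, replication-type over variant loci on the left and H3.1 over H3.3 on the right, with a linear axis from 0; large points are the reported values and small open points the other settings tried. The seed coat ratio was 1.67 on the left and 0.458 on the right, below the other 5 libraries.

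The replication-type sum was below every embryo library in the seed coat, and the variant sum was below all but WT 7. Replication-type loci summed to 4718 CPM per kb in the seed coat library, against 7305 and 9651 in WT 7 and 11. They summed to 8762 and 7930.5 in kyp 11 and 12 and 13856 in the globular library. Variant loci summed to 2821 CPM per kb in the seed coat library, against 2650 and 3667 in WT 7 and 11, so the variants lay within the WT range. They lay below the sums of 3259 and 3066 in kyp 11 and 12 and 5044 in the globular library. Without HTR5, the H3.3 locus that dominates the variant sum, the ratio was 3.05 in the seed coat library and 4.17 to 5.11 in the embryo libraries.

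**Figure D2:**
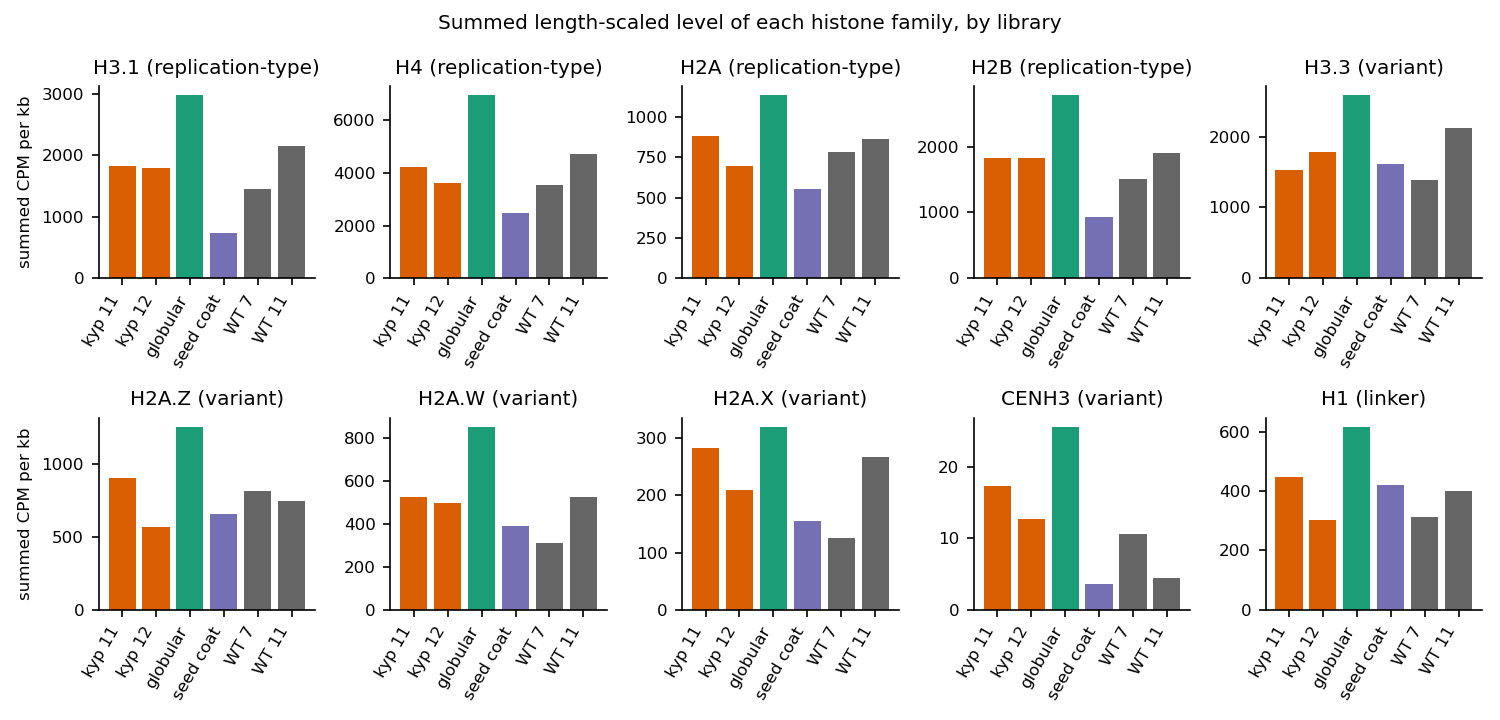
Summed CPM per kb of each histone family (bars, linear axis from 0, scaled per panel) in the 6 libraries, coloured by group, with 1 bar per library and no error bars. H3.1 reached 737 CPM per kb in the seed coat bar against 1449 and 2159 in the WT bars, while H3.3 was 1608 in the seed coat bar against 1388 and 2127.

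For the seed coat against WT embryos, no histone gene passed edgeR's quasi-likelihood test at an adjusted p of 0.05 over the 17706 genes tested. Over all genes, 0.158% were called higher and 0.627% lower. Since there is 1 seed coat library, its spread was taken from the 2-4 cell pairs, and 40 of the 41 members were tested. At an unadjusted p under 0.05, 13 members were lower and 0 higher, where all genes gave 6.13% lower and 3.39% higher. Fitted log2 fold changes were negative for 32 of the 40 members, with a median of -0.72 beside 0.00 over all genes. The seed coat lay below all 5 embryo libraries for 24 of the 40 (60%), beside 16.4% of all genes, and above all 5 for 2 (5.0%), beside 17% of all genes.

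H3.1 lay lowest. All 5 H3.1 loci had less signal in the seed coat library than in every embryo library, with fitted log2 fold changes of -0.72 to -1.45. HTR1 (AT5G65360), the highest of them, had 578 and 559 CPM in kyp 11 and 12, 832 in the globular library, 204 in the seed coat library, and 463 and 604 in WT 7 and 11. Its log2 fold change was -1.39 ± 0.45 (SE) with an edgeR adjusted p of 0.227, and its seed coat value was below the other 5 without overlap. HTR9 (AT5G10400) had 283 and 223 CPM in kyp 11 and 12, 493 in the globular library, 131 in the seed coat library, and 208 and 367 in WT 7 and 11. Its fitted difference was -1.14 ± 0.50 (SE, edgeR adjusted p = 0.467). DESeq2, run as an alternative, called HTR1 (adjusted p = 0.00966) and HTR3 (adjusted p = 0.0409) lower. It also called more genes over the whole table, 443 of 17706 against 139 with edgeR. HTR3 is 64.4% unique, so its values are uncertain.

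H4, the partner of H3 in the nucleosome core, was negative at 8 of 8 loci, with a median of -1.22, and 6 of the 8 lay below all embryo libraries. The 2 H4 loci with the highest mean CPM per kb were the exceptions. AT2G28740 had 474 and 439 CPM in kyp 11 and 12, 799 in the globular library, 347 in the seed coat library, and 346 and 439 in WT 7 and 11, so its seed coat and WT 7 values coincided (log2 fold change -0.18 ± 0.43). AT3G53730 had 451 and 253 CPM in kyp 11 and 12, 609 in the globular library, 313 in the seed coat library, and 448 and 308 in WT 7 and 11, and its groups overlapped too. The other 6 ranged from -0.59 (AT5G59690) to -1.59 (AT1G07660), and all 6 share 50-base windows with another H4 locus. AT5G59690 and AT5G59970, which share 59 windows with each other, are 91.5 and 93.1% unique, and only the 2 exceptions are unique over their whole length.

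The canonical H2A and H2B genes, whose products form the dimers on either face of the core, were split. Among 4 H2A loci 3 lay below all embryo libraries, with a family median of -0.64. HTA2 (AT4G27230), the highest H2A, had 341 and 268 CPM in kyp 11 and 12, 393 in the globular library, 213 in the seed coat library, and 319 and 306 in WT 7 and 11. HTA10 (AT1G51060) had 147 and 108 CPM in kyp 11 and 12, 202.5 in the globular library, 78 in the seed coat library, and 109 and 149 in WT 7 and 11. Both lay below every embryo value, with log2 fold changes of -0.55 ± 0.45 and -0.73 ± 0.50 (SE). HTA1, the fourth, overlapped the embryos at 46.6 CPM in the seed coat library.

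Of 8 H2B loci, 4 lay below all embryo libraries, among them the 2 that carry most H2B reads. HTB4 (AT5G59910) had 675 and 774 CPM in kyp 11 and 12, 1170.5 in the globular library, 356 in the seed coat library, and 651 and 793 in WT 7 and 11. HTB2 (AT5G22880) had 382 and 371 CPM in kyp 11 and 12, 502 in the globular library, 148 in the seed coat library, and 300 and 330 in WT 7 and 11. For both the seed coat level was under every embryo level, with log2 fold changes of -1.02 ± 0.43 and -1.09 ± 0.46 (edgeR adjusted p = 0.431 and 0.429). HTB9, HTB11 and HTB5 had values of 0.02, -0.40 and -0.11, and overlapped WT.

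The variants gave no single direction in the seed coat: 8 of 12 tested were negative, with a median of -0.26, which was -0.01 without WT 11 and -0.52 without WT 7. HTR5 (AT4G40040), the main H3.3 gene, had 1185 and 1479 CPM in kyp 11 and 12, 2275 in the globular library, 1307 in the seed coat library, and 1126 and 1822 in WT 7 and 11. Its seed coat level lay between the WT levels (log2 fold change -0.17 ± 0.41). HTR4, a second H3.3 locus, was above all embryo libraries at 143 CPM, against 96.9 and 58.9 in WT 7 and 11 (log2 fold change 0.88 ± 0.49, edgeR adjusted p = 0.663). HTR8 (AT5G10980), the third, had 187 and 181 CPM in kyp 11 and 12, 193 in the globular library, 136 in the seed coat library, and 138 and 207 in WT 7 and 11.

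H2A.Z loci diverged from each other. HTA8 had 155 and 102 CPM in kyp 11 and 12, 182 in the globular library, 35.9 in the seed coat library, and 107 and 171 in WT 7 and 11. Its log2 fold change of -1.96 ± 0.56 (SE) had the lowest adjusted p of the histone genes in this comparison (edgeR, 0.141). DESeq2 called it (adjusted p = 0.0146), as did edgeR without the filter on low counts (0.0289). Both settings also called more genes over the whole table, 443 and 479 against 139. It was not called by edgeR with RLE scaling, the library name prefix as a block or isoforms summed. Nor was it called with fractional reads rounded down or the mean of WT and kyp as reference. With a 2-4 cell library left out the call varied, and HTA8 had -1.95, -1.95 and -2.25 without kyp 11, kyp 12 and WT 7. HTA9 (AT1G52740), the most abundant H2A.Z, had 422 and 246 CPM in kyp 11 and 12, 491 in the globular library, 415 in the seed coat library, and 420 and 296 in WT 7 and 11, with full overlap. HTA11 (AT3G54560) had 117 and 82.6 CPM in kyp 11 and 12, 276 in the globular library, 65.9 in the seed coat library, and 101 and 97.5 in WT 7 and 11.

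The heterochromatin variant H2A.W also had members on either side. HTA6 (AT5G59870) had 211 and 196 CPM in kyp 11 and 12, 335 in the globular library, 101 in the seed coat library, and 134 and 226 in WT 7 and 11, so its seed coat value was under all embryo values. HTA7 (AT5G27670) had 185 and 171 CPM in kyp 11 and 12, 315 in the globular library, 184 in the seed coat library, and 101 and 166 in WT 7 and 11, so it lay above both WT libraries. HTA12, the third and uncertain from its overlap with another gene, had 16.6 CPM in the seed coat library, above all embryo libraries. Neither HTA6 (-0.84 ± 0.50) nor HTA7 (0.46 ± 0.47) passed the test.

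The H2A.X pair, the substrate of damage signalling, had its larger member inside the WT range. HTA5 (AT1G08880) had 159 and 116 CPM in kyp 11 and 12, 157 in the globular library, 99 in the seed coat library, and 58.5 and 150 in WT 7 and 11. HTA3 (AT1G54690), which overlaps other genes on the opposite strand, had 56.9 and 43.7 CPM in kyp 11 and 12, 88.5 in the globular library, 18.4 in the seed coat library, and 37.5 and 53.5 in WT 7 and 11. HTA3 lay below all embryo libraries, with a log2 fold change of -1.31 ± 0.61 (edgeR adjusted p = 0.513).

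Linker H1 gave no single direction in the seed coat. H1.1 (AT1G06760) had 206 and 98.6 CPM in kyp 11 and 12, 276 in the globular library, 239 in the seed coat library, and 151 and 172 in WT 7 and 11. H1.2 (AT2G30620) had 255 and 316 CPM in kyp 11 and 12, 522 in the globular library, 237 in the seed coat library, and 203 and 336 in WT 7 and 11. The seed coat lay above both WT libraries for H1.1 and between them for H1.2, and 0 of 3 H1 loci lay below all embryo libraries. For H1.2 it was also below the kyp and globular libraries. H1.1 is 60.8% unique, so its values are uncertain.

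**Figure D3:**
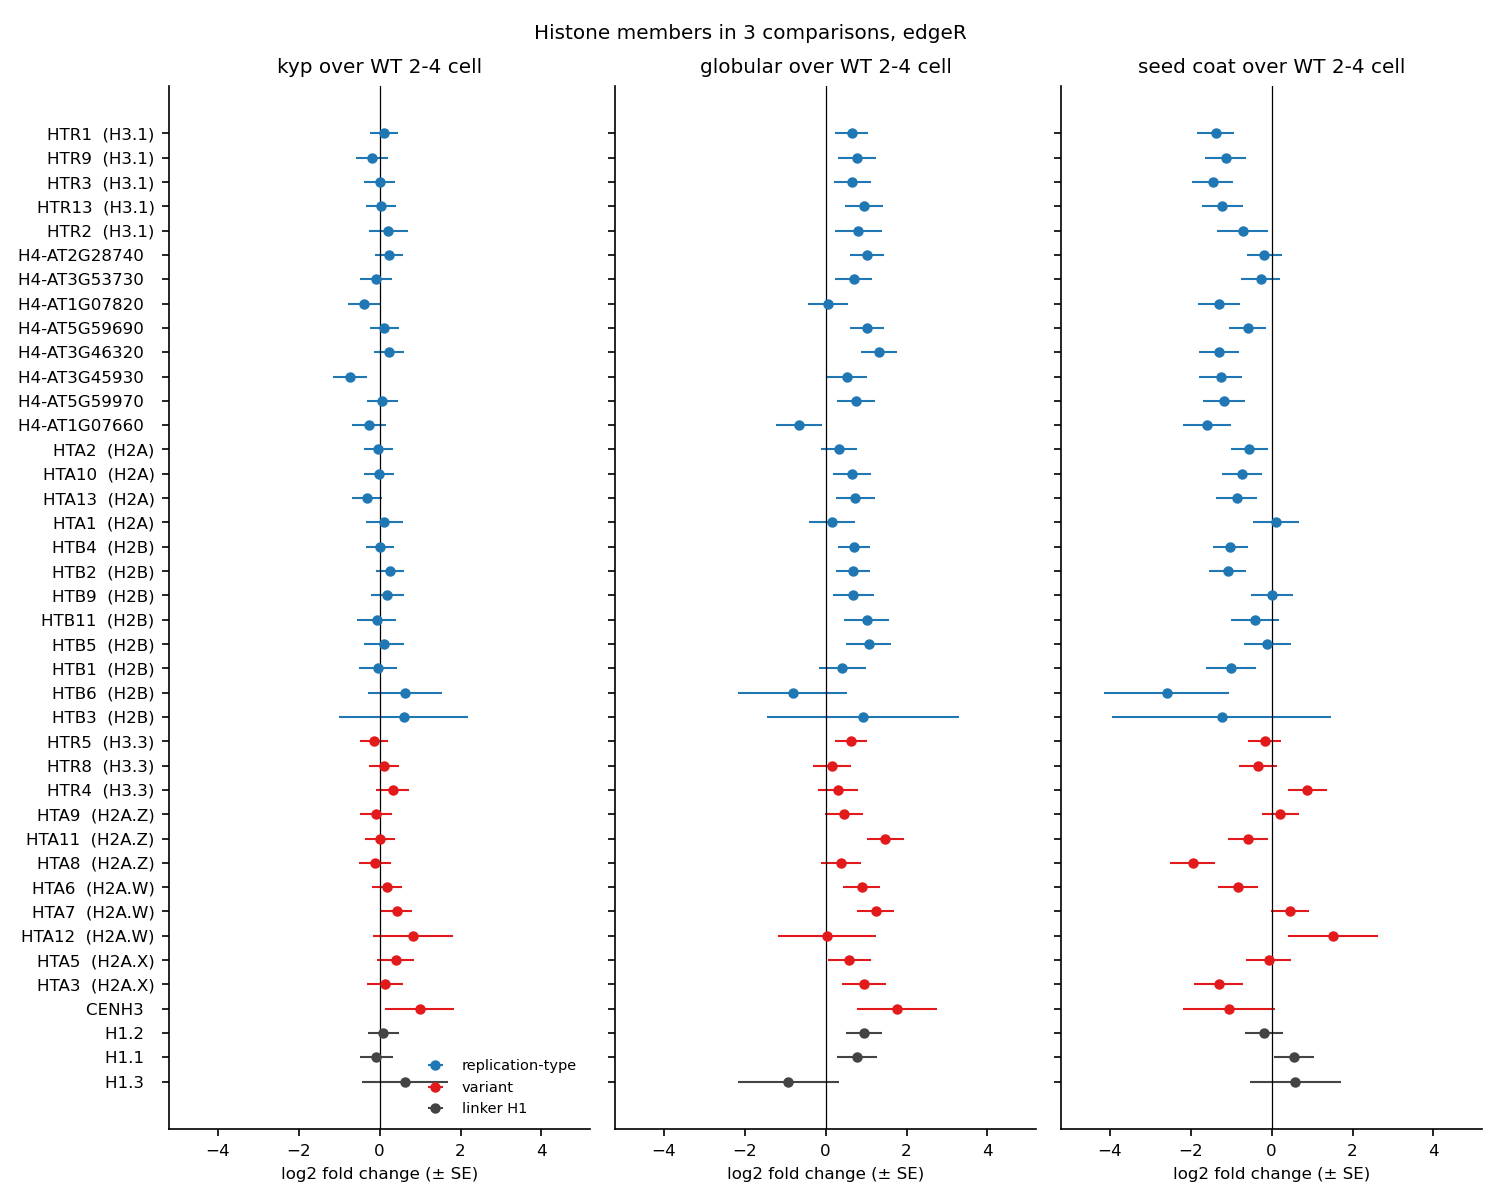
Fitted log2 fold change (points) with its SE (bars) for the 40 tested histone loci, by family, in kyp, globular and seed coat libraries over WT 2-4 cell libraries (edgeR, linear axis). In the seed coat panel the replication-type median is -1.02 and the variant median -0.26; in the globular panel they are 0.69 and 0.61, and in the kyp panel 0.03 and 0.16.

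Most genes that handle or accompany histones also had negative values in the seed coat. Of 23 histone chaperones and remodellers, 23 had negative values, with a median of -0.80 and 9 at an unadjusted p under 0.05, and 0 were called. NAP1;3, an H2A-H2B chaperone, had the most negative value, -2.38 (edgeR adjusted p = 0.0875). FAS1 and FAS2, subunits of the chaperone CAF-1 that loads H3.1-H4 during replication, had -1.21 and -1.99. FAS2 had 19 reads in the seed coat library. MSI1, a further CAF-1 subunit, had only -0.03. Over the 23 genes the values ran from -2.38 to -0.01. NAP1;2 and NRP1, the highest of the 23 by CPM per kb, had -1.23 and -1.41. Of 13 S phase genes, 12 were negative, and the median was -0.96. Over all genes tested, 8851 of 17706 were negative, with a median of 0.00. TSO2 and the replication clamp gene PCNA1, the highest of the 13 by CPM per kb, had -0.96 and -1.26. The helicase genes MCM3, MCM2 and MCM7 had -1.08, -0.29 and -0.29. E2FB went the other way, with 0.97. ATXR6 and ATXR5, which methylate H3.1, had -2.44 and -0.58 from 10 and 8 reads in the seed coat library, and neither passed the test.

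In globular embryos most members of both classes had positive fitted values. The replication-type to variant ratio was 2.75, between the WT values of 2.63 and 2.76. No histone gene was called against WT 2-4 cell embryos by edgeR at an adjusted p of 0.05, where 0.384% of all 17706 genes were called higher and 0.774% lower. At an unadjusted p under 0.05, 5 members were higher and 0 lower, beside 4.3% and 6.96% of all genes. Fitted values were positive for 37 of 40 members, with a median of 0.69 beside -0.12 over all genes. The globular library lay above all 4 libraries of 2-4 cell embryos for 30 of 40 members (75.0%), beside 23.7% of all genes, and below all 4 for 0, beside 25.2%.

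By class this was 20 of 25 replication-type and 8 of 12 variant genes. The variant median of 0.61 was 1.25 without WT 11, and the replication-type median of 0.69 was 0.45 without WT 7. All 5 H3.1 loci lay above the 4 younger embryo libraries, with values of 0.64 to 0.95, and all 3 H2A.Z loci did so too. HTA11 had the largest of the H2A.Z values, 1.47 ± 0.46, and the lowest adjusted p of the members (edgeR, 0.162), from 276 CPM in the globular library against 82.6 to 117 in the 4 others. The H4 loci AT3G46320 and AT2G28740 had 1.31 ± 0.45 and 1.02 ± 0.41, and HTA7 had 1.24 ± 0.46. Among H3.3 loci, HTR5 had 0.63 ± 0.40 and HTR8 0.16 ± 0.47. DESeq2 likewise called 0 members here.

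Genes that handle histones did not share this sign. Chaperones and remodellers had 10 positive and 13 negative values with a median of -0.06, and S phase genes 9 positive and 4 negative with a median of 0.11. Over the members, the globular library exceeded WT 7 by a median log2 difference of 0.96 and WT 11 by 0.51, and WT 11 exceeded WT 7 by 0.52, so the excess over WT 11 was no larger than the spread between the WT libraries. Of the 7 seed coat markers 6 had negative values in globular embryos and only KLU, the marker that went against its label, was called (log2 fold change -2.50, edgeR adjusted p = 0.0177), and their part in the result was not tested.

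Maternal kyp embryos showed little that was common to the histone genes. No member was called by edgeR among 15996 genes tested, of which 0.0188% were called higher and 0.0125% lower, and none had an unadjusted p under 0.05, beside 2.91% higher and 2.19% lower over all genes. Fitted values were positive for 26 and negative for 14 of 40 members, with a median of 0.09, and with 0.03 for replication-type and 0.16 for variant genes. Both kyp libraries lay above both WT libraries for 4 of 40 (10%), beside 17% of all genes, and below both for 1 (2.5%), beside 16.1%. The 4 were CENH3, HTA7, HTB2 and the H4 locus AT2G28740, and the 1 was HTA13, named after their values were seen.

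The pairs of libraries disagreed in sign. The names of kyp 12 and WT 11 share the prefix MC, and within that pair the members' median was -0.27, with 33 of 40 negative. Over all 17706 genes, that pair had a median of 0.00, with 8803 positive and 8733 negative. Within the pair without the prefix, kyp 11 over WT 7, the members' median was 0.44, with 37 of 40 positive. Over all genes this second pair had a median of 0.02, with 8984 positive and 8465 negative. DESeq2 called 0 members as well. The replication-type to variant ratio was 2.69 and 2.59 in kyp 11 and 12, against 2.76 and 2.63 in WT 7 and 11, so the groups overlapped. H3.1 loci ran from -0.18 (HTR9) to 0.22 (HTR2), H3.3 loci from -0.14 (HTR5) to 0.32 (HTR4), and H2A.W loci from 0.18 (HTA6) to 0.83 (HTA12), each with an SE of at least 0.34. The 5 pollen and sperm markers summed to 47.0 and 33.3 CPM in kyp 11 and 12, against 2.56 and 8.69 in WT 7 and 11, and their part in the kyp comparison was not tested.

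Within H3.1, H3.3, canonical H2A and H2B the same locus led in every library. HTR1 made up 38.3 to 44.2% of H3.1 signal (CPM per kb) and HTR2 2.59 to 4.51%. HTR5 made up 75.7 to 85.8% of H3.3. HTA2 made up 48.2 to 56.8% of canonical H2A, and HTB4 with HTB2 made up 45.8 to 53.3% and 24.0 to 31.4% of H2B. In H4 the lead differed: AT2G28740 (18.3 to 27.4%) led in kyp 11, kyp 12, globular and seed coat libraries, AT3G53730 (12.1 to 23.3%) in WT 7 and AT1G07820 (11.1 to 22.5%) in WT 11.

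Within H2A.Z and H2A.W the composition differed between libraries. HTA9 was 78% of H2A.Z in the seed coat library and 48.2 to 63.8% in the embryo libraries. HTA8 was 7.54% in the seed coat library and 18.2 to 31.9% in the embryo libraries. In WT 7 and 11, HTA9 was 63.8 and 49.2% and HTA8 18.2 and 31.9%. For both, the WT libraries differed from each other more than the seed coat differed from WT 7. HTA7 was the leading H2A.W in the seed coat library, with 59.5% of that family, against 40.1 to 46.8% in the embryo libraries. HTA6 led in all 5 embryo libraries with 52.2 to 57.6%, and was 34.2% in the seed coat library. HTA11 reached 31.7% of H2A.Z in the globular library, against 14.5 to 21.2% in the 5 others.

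**Figure D4:**
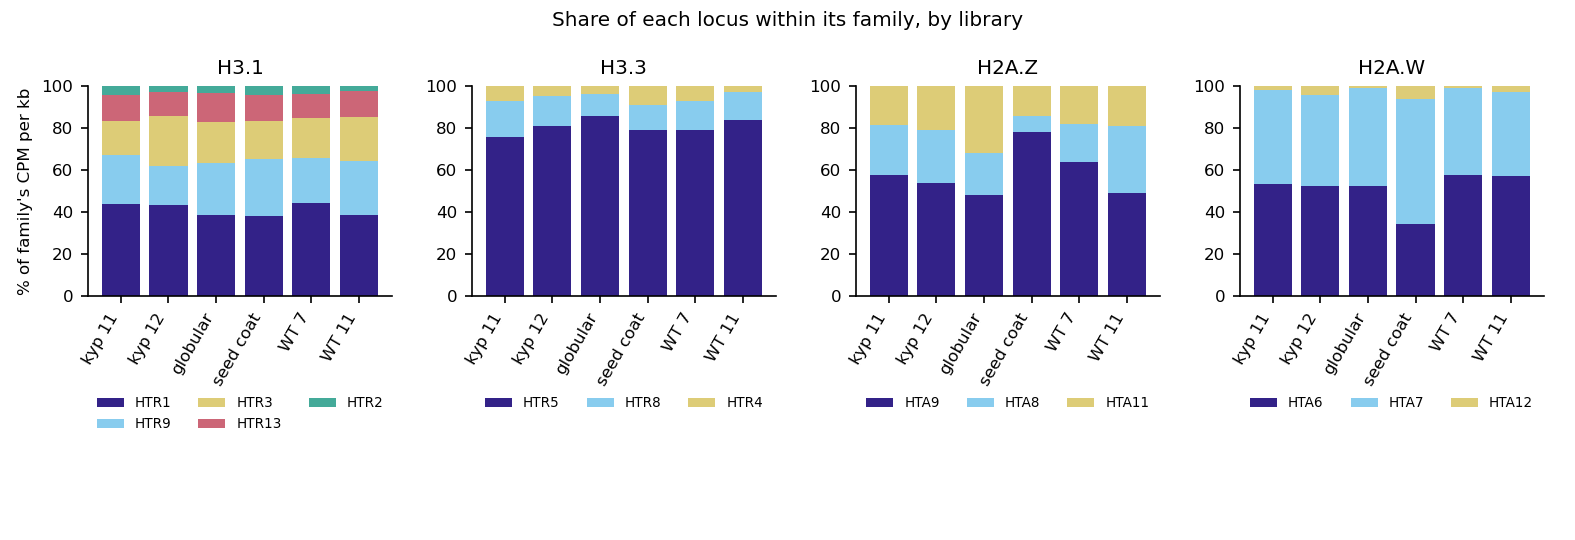
Stacked share of each locus in its family's CPM per kb, for H3.1, H3.3, H2A.Z and H2A.W in the 6 libraries (percent, from 0 to 100). H3.1 composition is alike across bars, while in the seed coat bar HTA9 is 78% of H2A.Z and HTA7 is 59.5% of H2A.W.

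A few members were read at low levels and are described by their reads. CENH3 (AT1G01370), the centromeric H3, had 23 and 46 reads in kyp 11 and 12, 38 in the globular library, 7 in the seed coat library, and 22 and 14 in WT 7 and 11. In CPM that is 15.2 and 11.2 in kyp 11 and 12, 22.6 in the globular library, 3.14 in the seed coat library, and 9.39 and 3.92 in WT 7 and 11. The order was globular, kyp, WT, seed coat, but the seed coat and WT 11 differed by less than the 2 WT libraries did. The log2 fold changes were 1.00 ± 0.85 in kyp, 1.77 ± 0.98 in globular embryos and -1.06 ± 1.14 in seed coat, none called (lowest edgeR adjusted p = 0.542).

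H1.3 (AT2G18050), known as a stress-inducible linker histone, differed widely between libraries of 1 group. It had 100 and 7 reads in kyp 11 and 12, 19 in the globular library, 72 in the seed coat library, and 67 and 52 in WT 7 and 11. In CPM, kyp 11 at 66.1 was the highest and kyp 12 at 1.70 the lowest of all 6 libraries. HTB3 (AT2G28720) had 7 and 9 reads in kyp 11 and 12, 7 in the globular library, 2 in the seed coat library, and 0 and 15 in WT 7 and 11, so in reads the 2 WT libraries spanned all others. HTB6 stood at 30 and 27 reads in kyp 11 and 12, 8 in the globular library, 3 in the seed coat library, and 8 and 47 in WT 7 and 11.

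HTR10 (AT1G19890), a male-germline H3, had 0 reads in all 5 embryo libraries and 3 in the seed coat library, and was not tested. A count of 0 allows up to 0.729 to 1.98 CPM in these libraries. The pollen-type gene LAT52-like had 38 and 53 reads in kyp 11 and 12, 3 in the globular library, 68 in the seed coat library, and 0 and 3 in WT 7 and 11. It was called higher in seed coat than in WT (edgeR adjusted p = 0.0242) and not in kyp (log2 fold change 5.19, edgeR adjusted p = 0.422). VGD1, another pollen gene, had 28 and 82 reads in kyp 11 and 12, 3 in the globular library, 36 in the seed coat library, and 2 and 25 in WT 7 and 11, while the sperm gene DUO1 had 0 reads in all 6 libraries. Among 8 further histone loci outside the list, HTR6 and HTA4 had 0 reads throughout, and HTB7 had 44 reads in the globular library against 1 to 10 elsewhere (edgeR adjusted p = 0.334 against WT).

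The 5′ ends of these genes carry short motifs known from plant histone promoters: the octamer CGCGGATC and the hexamer ACGTCA. RefSeq TAIR10.1 sequence was searched on both strands from 250 bases before to 50 bases after the annotated start of 27561 protein-coding genes. The octamer was in 10 of 41 members (24.4%) and in 40 of all 27561 windows (0.145%), so 10 of the 40 loci that hold it are members. It was in 3 of 5 H3.1, 2 of 8 H4, 2 of 4 H2A and 0 of 8 H2B loci, and also in HTR5, HTA6 and H1.1. The windows that follow read 5′ to 3′ along the gene's strand, end before the gene start, and have the octamer or its reverse complement in capitals.

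H1.1 (AT1G06760), chr1:2077772-2077811, minus strand: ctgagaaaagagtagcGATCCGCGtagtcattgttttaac

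HTR2 (AT1G09200), chr1:2972401-2972440, minus strand: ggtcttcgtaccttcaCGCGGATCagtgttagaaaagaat

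HTR9 (AT5G10400), chr5:3271054-3271093, minus strand: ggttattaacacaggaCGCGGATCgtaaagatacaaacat

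HTR1 (AT5G65360), chr5:26120684-26120723, minus strand: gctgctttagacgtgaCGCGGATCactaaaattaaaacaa

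HTR5 (AT4G40040), chr4:18558946-18558978, minus strand: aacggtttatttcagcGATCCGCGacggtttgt

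HTA6 (AT5G59870), chr5:24116313-24116352, minus strand: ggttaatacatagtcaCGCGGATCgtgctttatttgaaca

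HTA10 (AT1G51060), chr1:18926721-18926760, plus strand: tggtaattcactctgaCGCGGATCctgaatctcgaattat

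HTA13 (AT3G20670), chr3:7229306-7229345, plus strand: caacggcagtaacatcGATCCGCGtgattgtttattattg

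H4 AT1G07660, chr1:2368691-2368730, plus strand: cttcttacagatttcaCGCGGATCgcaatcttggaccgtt

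H4 AT5G59690, chr5:24051387-24051426, plus strand: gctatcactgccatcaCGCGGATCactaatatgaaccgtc

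The hexamer was in 13 of 41 members (31.7%), beside 9.17% of all windows, and in 8 of 8 H2B loci. The H2B windows are shown because it is the motif that the whole family shares, and HTB4 is left out since its only match lies 41 bases after the start. Capitals mark the hexamer, which does not overlap the octamer in any member.

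HTB1 (AT1G07790), chr1:2412890-2412929, plus strand: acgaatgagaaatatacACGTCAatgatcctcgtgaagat

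HTB2 (AT5G22880), chr5:7652887-7652914, minus strand: taaccACGTCAgctatccacgccaaaaa

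HTB9 (AT3G45980), chr3:16898147-16898186, minus strand: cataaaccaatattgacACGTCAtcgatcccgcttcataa

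HTB11 (AT3G46030), chr3:16914197-16914236, minus strand: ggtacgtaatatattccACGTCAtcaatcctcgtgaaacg

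HTB3 (AT2G28720), chr2:12326741-12326780, plus strand: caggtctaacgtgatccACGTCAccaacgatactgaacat

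HTB5 (AT2G37470), chr2:15736662-15736701, plus strand: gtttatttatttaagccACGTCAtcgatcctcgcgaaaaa

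HTB6 (AT3G53650), chr3:19889184-19889223, plus strand: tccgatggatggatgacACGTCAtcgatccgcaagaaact

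In most of these the hexamer is followed by the same letters. ACGTCANNNATCC, a longer form that contains the hexamer and was chosen after these windows were seen, was in 6 of 8 H2B loci and 9 of 41 members (22.0%), beside 32 of 27561 windows (0.116%). The E2F-type motif TTTGGCGC was in the matched H4 pair AT3G45930 and AT3G46320, 237 bases before the start in both, and in 0.432% of all windows. TTTCCCGC was in 0 of 41 members and 0.795% of all windows.

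**Figure D5:**
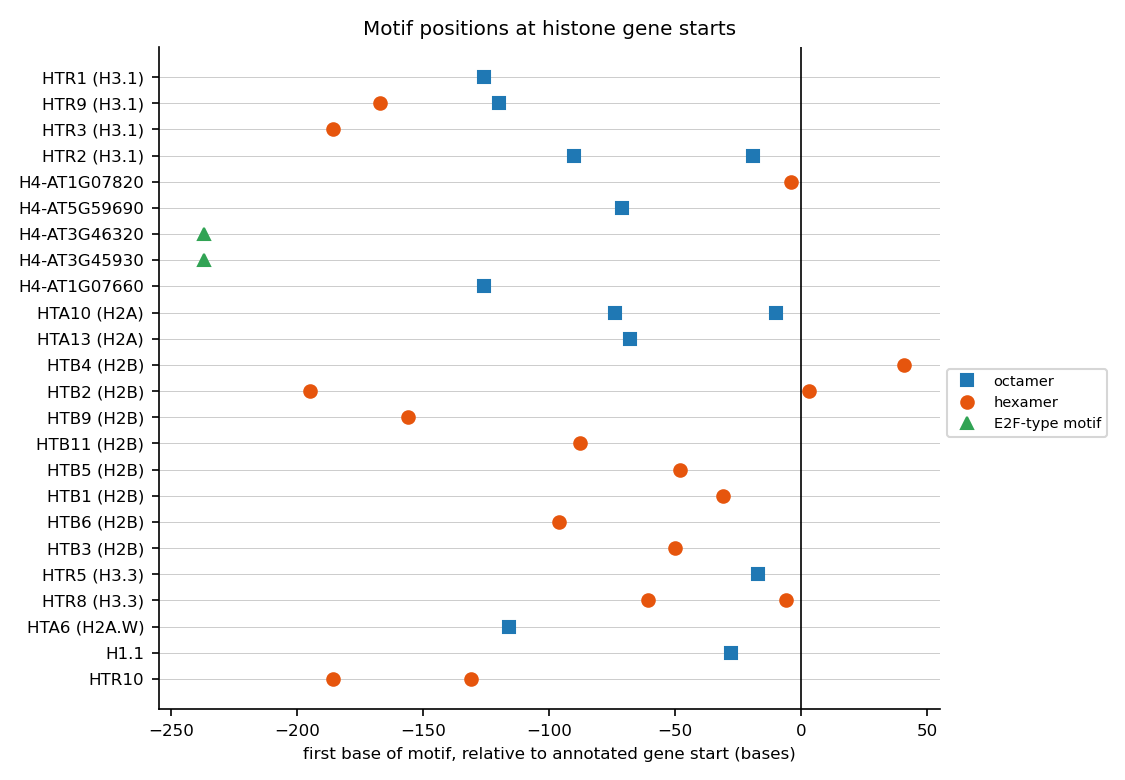
First base of each motif match (points) relative to the annotated gene start (vertical line, in bases) for the members that hold one, with octamer, hexamer and E2F-type matches marked by shape. Octamer matches lie 10 to 126 bases before the start, and H2B loci have a hexamer but no octamer.

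The motifs did not sort the members by how they differed between libraries. In the seed coat, the 7 replication-type loci with an octamer had a median log2 fold change of -0.87, and the 18 without had -1.05. In globular embryos the medians were 0.73 with and 0.69 without, and in kyp embryos -0.01 and 0.05. For the hexamer, the seed coat medians were -1.09 in 11 replication-type loci with it and -0.80 in 14 without. These are descriptions of the fitted values with no test, and H4 AT2G28740, with the smallest seed coat difference among H4 loci, has neither motif.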

How the data were processed

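The authors counted uniquely placed reads per transcript and deposited 1 table per library, with whole counts in 4 of them, per the file headers and values. The tables deposited for kyp 12 and WT 11 hold 0.5 of a read in 10.8 and 12.7% of transcripts, which makes them expected counts in form, and these were rounded up; how the fractions arose is not stated. The deposited coverage signal per transcript served only to estimate the read length, and the deposited transcript length, another column, for CPM per kb. Neither aligner nor genome build nor annotation is named in the sources used here. The 37813 transcripts present in all 6 tables gave 32140 loci, each represented by the isoform with most reads; 7 members had more than 1 isoform. Members and lists were chosen with earlier results of these data known.

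Counts were tested with edgeR 4.0.16 (R 4.3.3; quasi-likelihood F test, TMM, filterByExpr with a minimum count of 10, Benjamini-Hochberg over all genes tested, 0.05). kyp and WT were fitted on 4 libraries; globular and seed coat were set against WT in a fit of all 6 libraries in 4 groups, with 2 residual degrees of freedom. The script was tested on simulated data. DESeq2 1.42.0, other scalings and filters, the name prefix as a block, and each 2-4 cell library left out were tried as alternatives. Gene reads per library ranged from 1448502 to 4107227. Log2 differences between single libraries used a pseudocount of 0.5 CPM. Windows of 50 bases, coding sequences and gene starts were read from RefSeq TAIR10.1, whose transcript length matched the tables for 6 of 41 members, so only sequences and names were taken from it. Named in full are the 2 highest loci per family by CPM per kb, the single-locus classes and the members with 0 reads; others were named where a count needed them.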

Additional observations from a re-analysis of the deposited data

How the results depend on the processing

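The count of genes called over the whole table moved with the method. For kyp it was 5, and 50 with DESeq2, 106 with no filter on low counts, 18 with the name prefix as a block, 14 in a fit of all 6 libraries and 8 to 126 with 1 library left out. For globular embryos it was 205, and 342, 562 and 344 with DESeq2, no filter and the block, and 336 to 496 with 1 library left out. For seed coat it was 139, and 443, 479 and 296 in the same order, 85 with isoforms summed, and 267 to 428 with 1 library left out. Histone genes called lower in the seed coat were 0, but 3 with DESeq2 (HTA8, HTR1 and HTR3), 1 with no filter (HTA8) and 0 to 1 with 1 library left out (HTA8). No histone gene was called in the kyp or globular comparison under the alternatives run, and no called value changed sign. The seed coat median of replication-type loci was -0.68 without WT 11 and -1.15 without WT 7; the globular one was 0.45 to 0.87. The variant median ran from -0.52 (without WT 7) to -0.01 (without WT 11) in seed coat, and in globular embryos was 0.96 with the block and 1.25 without WT 11. The cause of these differences was not tested.

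The replication-type to variant ratio was lowest in the seed coat under every setting. In the order kyp 11, kyp 12, globular, seed coat, WT 7, WT 11, it was 1.83, 1.78, 1.85, 1.14, 1.87 and 1.80 with isoforms summed; 1.99, 1.90, 1.99, 1.18, 2.02 and 1.91 with no length scaling; and 2.45, 2.39, 2.51, 1.48, 2.46 and 2.47 per kb of unique reference sequence. It was 2.13, 1.99, 2.20, 1.34, 2.19 and 2.11 without H2B, and 2.96, 2.79, 2.95, 1.77, 2.91 and 2.84 without CENH3 and H2A.X. It was 2.11, 1.91, 2.05, 1.31, 2.09 and 1.81 without members under 90% unique, a setting chosen after seeing the data, and 1.2, 1.01, 1.15, 0.458, 1.04 and 1.02 for H3.1 over H3.3 alone. The histone share with isoforms summed was 1.25% for globular embryos and 0.680% for seed coat. With CPM of gene reads without rRNA, also chosen after seeing the data, the globular library was above all 2-4 cell libraries for 29 members and the seed coat below all embryo libraries for 23.

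No paired analysis was possible because the groups compared share fewer than 2 library numbers; the block used above is the prefix of the library names, which the labels do not describe as a pairing. Globular and seed coat have 1 library each, so their own spread is unmeasured, and 3 reads correspond to 0.729 to 1.98 CPM.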
